A study of Mus musculus with 2 samples.

Results

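The C/EBP family of transcription factors was followed here through single-cell RNA-Seq of mouse lung. The family was taken as 6 gene symbols, Cebpa, Cebpb, Cebpd, Cebpe, Cebpg and Ddit3, out of 32285 features in the count matrix. These symbols filled 7 rows, because Ddit3 is listed under 2 identifiers, and 6 of the 7 rows held a unique molecular identifier (UMI) in each library. The second Ddit3 row (ENSMUSG00000116429), an overlapping gene model on chromosome 10 from 127290829 to 127293753, held 0 UMIs in both libraries.

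There was 1 library per genotype, 1 of Cebpa fl/fl mice, whose Cebpa alleles are flanked by loxP sites, and 1 of Cebpa ΔSftpc mice, which carry the same alleles together with a tamoxifen-inducible Cre recombinase (CreERT2) driven by the Sftpc gene. Sftpc encodes surfactant protein C and is expressed in alveolar epithelial type 2 (AT2) cells, so that deletion is directed to these cells and the Cebpa alleles of endothelial, mesenchymal and blood cells are left in place. Tamoxifen was injected 5 times, daily, at 75 mg/kg. Lungs were taken 26 weeks after the first injection, and the methods add weekly tamoxifen for mice kept longer than 3 months. The mice were of mixed background and both sexes, and 3 months old unless stated otherwise. The methods count the time from the first tamoxifen injection for both genotypes. The study counts 3 mice per genotype, but a barcode cannot be traced to its mouse. Each genotype therefore counted as a single sample, differences between genotypes have no test, and genotype and library cannot be told apart. The labels describe a sort for live cells. Whether the 3′ end of the Cebpa transcript, which is the part counted, lies in the deleted segment is not given in the sources used here, so a Cebpa UMI does not show that the allele it came from is intact.

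C/EBP proteins are basic leucine zipper (bZIP) factors that bind DNA as dimers with each other. C/EBPα drives differentiation and lipid metabolism and is needed for surfactant production in AT2 cells, for granulocytes and for fat cells. C/EBPβ and C/EBPδ are induced by cytokines and shape macrophage, acute phase and stromal gene expression. C/EBPε acts late in granulocyte maturation, C/EBPγ lacks a strong activation domain and pairs with other bZIP factors such as ATF4, and CHOP, the product of Ddit3, is made under endoplasmic reticulum stress.

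In GRCm38, Cebpa (ENSMUSG00000034957) is a plus-strand gene spanning bases 35119293 to 35121928 of chromosome 7, and Cebpg is read from the minus strand of the same chromosome from 35046422 to 35056573, 62719 bases away. Cebpb lies on chromosome 2 from 167688915 to 167690418, Cebpd on chromosome 16 from 15887286 to 15891031, Cebpe on chromosome 14 from 54710360 to 54712174, and Ddit3 on chromosome 10 from 127290774 to 127296288. The 100 bases just upstream of the RefSeq start are printed 5′ to 3′ for the 3 members whose levels the results turn on, the deleted gene, its neighbour and Cebpb. They are credited to RefSeq on GRCm38.p6, in which 4 of the 6 members had an entry (Cebpa, Cebpb, Cebpg and Ddit3). Capitals mark matches to 5 short motifs searched on both strands, which are spelled out after the sequences. The first stretch is chr7:35119193-35119292 on the plus strand, the second chr7:35056567-35056666 on the minus strand and the third chr2:167688815-167688914 on the plus strand.
Cebpa: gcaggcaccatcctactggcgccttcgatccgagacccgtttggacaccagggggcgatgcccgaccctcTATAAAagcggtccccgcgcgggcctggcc
Cebpg: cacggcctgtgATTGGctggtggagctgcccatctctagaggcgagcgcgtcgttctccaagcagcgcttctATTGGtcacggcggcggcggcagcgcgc
Cebpb: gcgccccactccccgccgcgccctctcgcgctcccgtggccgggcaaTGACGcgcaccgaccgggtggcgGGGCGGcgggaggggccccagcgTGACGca

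The capitals of Cebpa are a TATA box (TATAAA) from base -30 to -25 before the start. Stretches of this length held that motif in 5.56% of 32851 promoters. The capitals of Cebpg are ATTGG, the reverse complement of the CCAAT box for which the family is named, at -89 and again at -28, and 18.9% of promoters held a CCAAT box. The capitals of Cebpb are TGACG, the core of a cyclic AMP response element, at -53 and -7 (10.5% of promoters) and a GC box, GGGCGG, at -30 (24.7%). The stretches of these neighbours on chromosome 7 thus shared none of these motifs. TTGCG, part of the site that C/EBP dimers bind, was in none of these stretches and in 6.85% of promoters. Each match is a description of letters only.

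The libraries held 11721 and 13373 barcodes (Cebpa fl/fl first, here and below) with 69200420 and 64697396 UMIs, and 45 barcodes occurred in both. After filtering on at least 200 genes and at most 20% mitochondrial UMIs, 11487 and 13238 cells with medians of 4835 and 2607 UMIs remained. Levels are given as CPM, the UMIs of a gene per 1000000 UMIs of the cells it was counted in, with exact Poisson 95% intervals. Cells were assigned to a class from raw counts of fixed marker genes, none of them a C/EBP gene. Epithelial cells numbered 525 and 108, endothelial cells 7843 and 6294, mesenchymal cells 1807 and 1168, myeloid cells 107 and 1279, and lymphoid cells, kept for comparison, 65 and 520. Genes outside the gate were checked against the class names. Kdr and Flt1 together reached 2048 and 2090 CPM in endothelial cells against 22.0 to 183 CPM in epithelial, mesenchymal and myeloid cells. Ptprc and Laptm5 reached 1772 and 2591 CPM in myeloid cells against 1.81 to 109 CPM in epithelial, endothelial and mesenchymal cells. In lymphoid cells they stood at 1445 and 1587 CPM, so they did not set myeloid apart from lymphoid cells. No class was assigned to 9.92% and 29.2% of cells.

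Each UMI is 1 captured 3′ end, so levels of different genes were not divided by length. Every interval reflects counting error alone, and variation between mice or libraries is not in it. Ratios are log2 of the level in the Cebpa ΔSftpc over that in the Cebpa fl/fl library, with exact conditional binomial intervals. Over genes with at least 50 UMIs in epithelial cells, these intervals lay above 0 for 8.65% and below 0 for 9.25%. The shares were 28.1% and 25.5% in endothelial, 17.0% and 15.7% in mesenchymal and 12.7% and 10.3% in myeloid cells. A ratio of 2-fold or more, over genes with at least 50 UMIs in a class, is counted as called, which is a size and not a test. Cebpa, Cebpb, Cebpd, Cebpg and Ddit3 passed this minimum in all 4 classes and Cebpe in none, which made 20 pairs of member and class.

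The deleted gene was examined first. In epithelial cells Cebpa stood at 139 CPM (131 to 147, 1303 UMIs) in the Cebpa fl/fl and at 82.0 CPM (68.9 to 96.9, 138 UMIs) in the Cebpa ΔSftpc library, 1.69-fold lower, with a log2 ratio of -0.76 (-1.02 to -0.51). The intervals did not overlap, yet the gene was not at 0. AT2 cells, gated inside the epithelial class by Slc34a2, Lamp3, Abca3, Napsa, Cxcl15 and Lpcat1, made up 384 of the 525 and 57 of the 108 epithelial cells, and within them Cebpa went from 159 CPM (150 to 168, 1255 UMIs) to 115 CPM (95.7 to 138, 120 UMIs), a log2 ratio of -0.46 (-0.74 to -0.19). The smaller part of AT2 cells in the Cebpa ΔSftpc library thus moved with the ratio of the whole class.

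The other members of the epithelial class did not follow Cebpa in 1 direction. Cebpg, the dimer partner without a strong activation domain, stood at 60.3 CPM (55.5 to 65.5) and 117 CPM (101 to 135), a log2 ratio of 0.96 (0.71 to 1.19). Cebpb stood at 114 and 151 CPM (0.41, 0.21 to 0.61), Ddit3 at 18.9 and 28.5 CPM (0.60, 0.10 to 1.06), and Cebpd at 171 and 136 CPM (-0.33, -0.53 to -0.13, but 0.20 with each cell thinned to 1000 UMIs). Within AT2 cells Ddit3 hardly differed, at 18.6 and 19.2 CPM (0.05, -0.70 to 0.73). Of the 48 epithelial Ddit3 UMIs of the Cebpa ΔSftpc library, 20 lay in AT2 and 17 in AT1 cells. The myeloid list moved with Cebpb in the epithelial class, at 21.1 and 72.5 CPM, and Scgb1a1, the secretory protein of a few airway cells, took 10114 and 97990 CPM of the class total. Their part in the class ratios was not tested. Ratios were recomputed with a total that left out genes carried by free RNA, Scgb1a1 and Sftpc among them. All 22 over the classes stayed inside their counting interval. In epithelial cells Sftpc went from 166953 to 94739 CPM while Scgb1a1 rose, so leaving out both cannot show the part of Scgb1a1 alone. Summed over the family the level hardly moved, from 503 to 515 CPM, while the make-up differed, with Cebpa at 27.6% and 15.9% and Cebpg at 12.0% and 22.7% of the family's UMIs. None of the 5 members was called, against 1.79% of 10352 genes called higher and 2.01% called lower in epithelial cells. Cebpg passed 2-fold with a stricter gate (1.09), without the cells above the 95th percentile of UMIs (1.15) and after thinning to 1000 UMIs (1.83), and Cebpa after thinning (-1.74, -3.66 to -0.32, from 67 and 4 UMIs). Cebpe held 0 UMIs in both libraries, which allows up to 0.393 and 2.19 CPM.

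**Figure D1:**
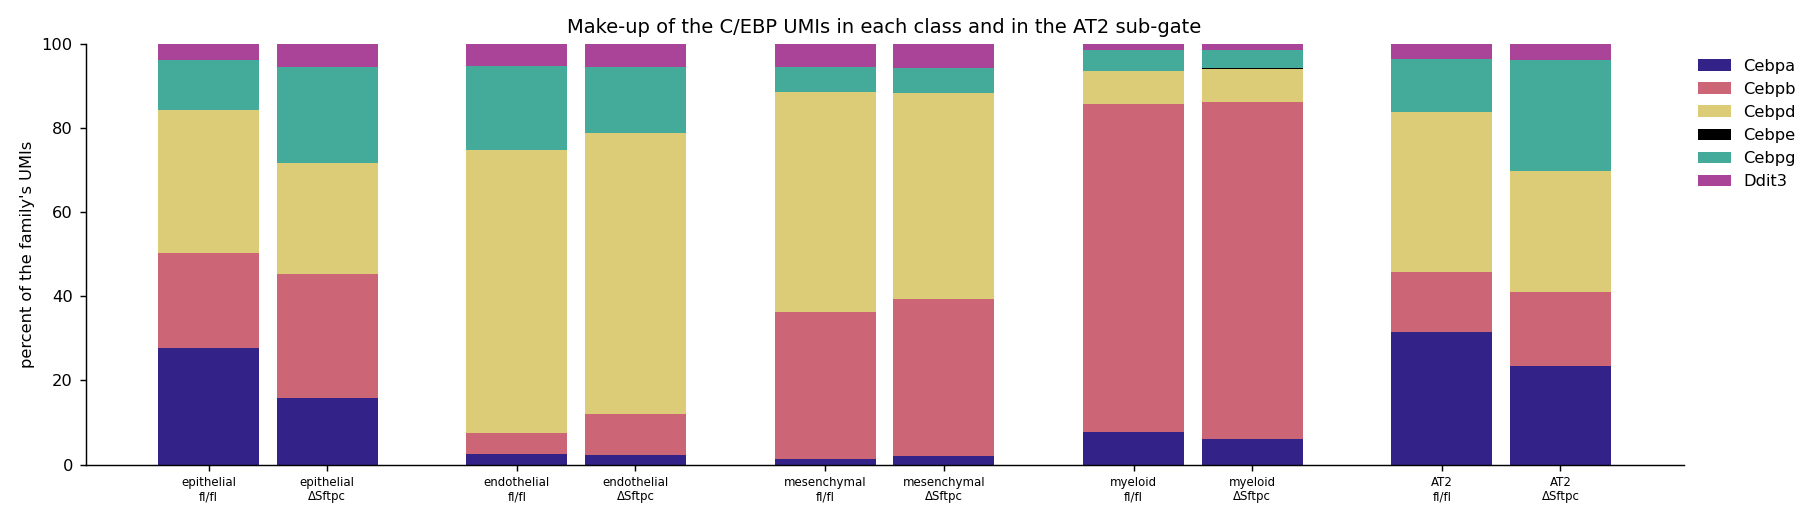
Stacked bars give each member's percent of the family's UMIs (vertical axis, 0 to 100) in each class and in the AT2 sub-gate, 1 bar per library. Cebpd filled 67.3% and 66.8% of the endothelial bars and Cebpb 78.0% and 80.2% of the myeloid bars, while in epithelial cells Cebpa went from 27.6% to 15.9% and Cebpg from 12.0% to 22.7%.

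To set depth equal, AT2 cells with at least 10000 UMIs were thinned to that number. A Cebpa UMI was then found in 262 of 350 Cebpa fl/fl cells (74.9%, exact binomial interval 70.0 to 79.3) with a mean of 1.56, and in 25 of 43 Cebpa ΔSftpc cells (58.1%, 42.1 to 73.0) with a mean of 1.14. The highest thinned count was 7 Cebpa UMIs a cell in both libraries. Without thinning, 90.1% of 384 and 66.7% of 57 AT2 cells held a Cebpa UMI. Among Cebpa fl/fl cells, those with and without a Cebpa UMI had median Sftpc counts of 1982 and 1989 per 10000. In the Cebpa ΔSftpc library the medians were 1759 in the 25 cells with a Cebpa UMI and 1508.5 in the 18 without. The lowest Sftpc counts there were 985 and 2, against 914 and 770 in the Cebpa fl/fl library. Cebpg averaged 0.68 UMIs in the Cebpa ΔSftpc cells with a Cebpa UMI and 2.22 in those without, with a median of 1 in both. In these thinned cells Cebpa and Cebpb were found together in 36.6% of Cebpa fl/fl AT2 cells, against 36.1% for the product of their shares, and in 16.3% (7 of 43) of Cebpa ΔSftpc AT2 cells, against 25.7%. In the Cebpa ΔSftpc library 28.0% of cells with and 66.7% of cells without a Cebpa UMI held Cebpb.

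The AT2 cells of the Cebpa ΔSftpc library fell into 2 sets by Sftpc, a gene used in no gate. Of the 57 cells, 12 (21.1%, 11.4 to 33.9) held between 0 and 12.5 Sftpc UMIs per 10000, and the other 45 held between 963 and 3010 with a median of 1680. No cell lay between. In the Cebpa fl/fl library 383 of 384 cells held between 778 and 3234 with a median of 1978, and the 1 cell below, at 39.8, had 503 UMIs in all. Summed over the 12 cells Sftpc stood at 412 CPM, under the 582 CPM counted in endothelial cells of the same library. The dividing value of 100 was chosen after the values were seen, the 12 cells come from 1 library, and the comparisons below are descriptions.

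The 12 cells low in Sftpc held 0 Cebpa UMIs among 121504 UMIs, where 19.3 would be found at the level of Cebpa fl/fl AT2 cells. Taking the floor as 3 UMIs over the set, this was 6.43-fold lower, a figure set by that floor and not a bound. The exact interval allows up to 30.4 CPM, against 159 CPM in Cebpa fl/fl AT2 cells. Cebpg stood at 609 CPM (478 to 765, 74 UMIs), against 63.4 CPM in Cebpa fl/fl AT2 cells, a log2 ratio of 3.26 (2.89 to 3.62). Ordered by Sftpc, the 12 cells held 3, 1, 7, 19, 3, 11, 6, 15, 9, 0, 0 and 0 Cebpg UMIs, in cells of 7286, 8010, 5147, 18543, 2278, 14718, 22780, 25888, 13737, 1342, 974 and 801 UMIs. A Cebpg UMI was thus found in 9 of the 12 cells, and the 3 without one were the shallowest. Cebpb stood at 206 CPM (25 UMIs), a log2 ratio of 1.49 (0.85 to 2.07), Cebpd at 148 CPM (-0.37, -1.13 to 0.30), and Ddit3 held 2 UMIs.

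Summed over the 45 cells with Sftpc, the intervals of Cebpa and Cebpd against Cebpa fl/fl AT2 cells lay below 0, that of Cebpa only just. The intervals of Cebpg, Cebpb and Ddit3 held 0. Cebpa stood at 131 CPM (108 to 156, 120 UMIs), a log2 ratio of -0.28 (-0.56 to -0.01), so all 120 Cebpa UMIs of the AT2 gate came from these cells. Cebpg stood at 66.4 CPM (0.07, -0.34 to 0.45), Cebpb at 71.9 CPM (-0.03, -0.42 to 0.34) and Ddit3 at 19.6 CPM (0.08, -0.72 to 0.79). Cebpd was lower, at 141 CPM (-0.45, -0.72 to -0.19). Set against each other within the same library, the 12 cells exceeded the 45 by 3.20 in Cebpg (2.69 to 3.71) and by 1.52 in Cebpb (0.79 to 2.20) on the log2 scale, while Cebpd differed by 0.08 (-0.72 to 0.79). Without the 12 cells, the Cebpg ratio of AT2 cells went from 1.03 to 0.07 and that of Cebpb from 0.26 to -0.03.

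**Figure D2:**
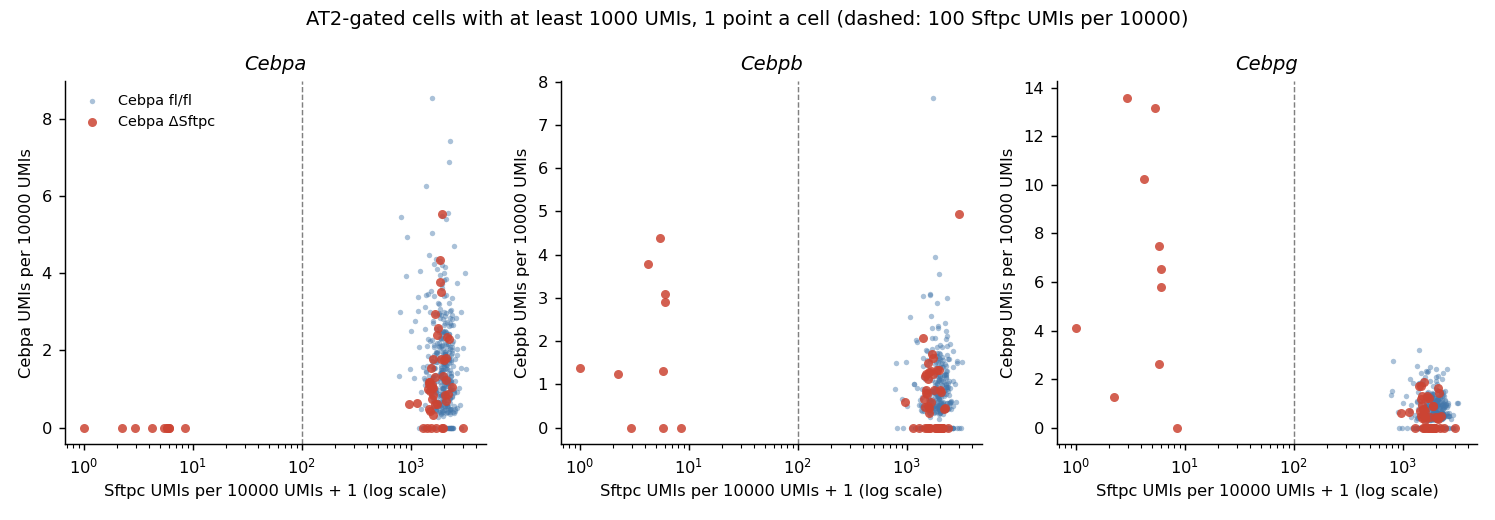
Each point is 1 AT2-gated cell of at least 1000 UMIs, with its Sftpc UMIs per 10000 plus 1 on a log axis and its Cebpa, Cebpb or Cebpg UMIs per 10000 on the vertical axis, by library. Left of the dashed line at 100 lie only Cebpa ΔSftpc cells, the 10 of the 12 that are deep enough to be drawn, all at 0 for Cebpa, and among them are the cells with the highest Cebpg.

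Markers of other cells were measured in the 12 cells. The airway secretory list summed to 90.5 CPM, with 3 of its 6 genes detected, against 85.0 CPM in Cebpa fl/fl AT2 cells, and the ciliated list to 74.1 against 93.1 CPM. The AT1 list summed to 1835 against 1673 CPM with 4 of 6 genes detected. The myeloid list stood at 74.1 CPM, with 6 of 11 genes detected, against 10.1 CPM, and S100a8 at 82.3 CPM (10 UMIs). In the 45 cells the myeloid list stood at 58.8 CPM with all 11 genes detected. The epithelial class list stood at 3391 CPM against 2440 CPM. The median depth of the 12 cells was 7648 UMIs (801 to 25888) and that of Cebpa fl/fl AT2 cells 21166 UMIs.

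Genes of the alveolar program did not change together in the 12 cells. Among 1317 genes for which at least 10 UMIs would be found in these cells at the pooled level, 14.2% were called higher and 6.45% lower, and the median was 0.37. Cebpa and Cebpd passed that minimum, and Cebpb and Cebpg did not, so their ratios stand outside these counts. Of 9 alveolar genes known as targets of C/EBPα, 4 were called lower, 0 higher, and the median was -0.56. Fabp5, a fatty acid carrier, held 2 UMIs with a log2 ratio of -6.48 (-9.52 to -4.63). Scd1, a desaturase of fatty acids, was at -1.73, Lpcat1, which makes surfactant phosphatidylcholine, at -1.96 and Abca3, the lipid pump of lamellar bodies, at -1.41. The last 2 are gate genes. Fasn (-0.42), Aqp5 (-0.56) and Sftpd (-0.36) moved less, and the surfactant proteins Sftpa1 (0.47) and Sftpb (0.32) were not lower. Lyz2, which encodes lysozyme, stood at 98.8 CPM in the 12 cells and at 18469 CPM in the 45. Krt8, a keratin raised in stressed alveolar cells and a gene of the class gate, stood at 527 CPM against 183 CPM in Cebpa fl/fl AT2 cells (1.52, 1.14 to 1.89). In the 45 cells 0 of the 9 alveolar genes were called, where 0.394% of 7103 genes were called higher and 1.21% lower. The median of the 9 was -0.05, against -0.0049 over all genes tested.

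Cells with Sftpa1 but little Sftpc also lay outside the AT2 gate. Among epithelial cells of no sub-gate, 4 of 10 in the Cebpa fl/fl and 6 of 11 in the Cebpa ΔSftpc library held at least 100 Sftpa1 UMIs per 10000. Sftpc was under 100 per 10000 in 0 of the 4 and in all 6, and the 6 cells held 0 Cebpa and 10 Cebpg UMIs among 30148 UMIs.

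In the other epithelial cells Cebpa was low or rested on few counts. AT1 cells, the flat gas exchange cells, held 1 Cebpa UMI in 82 Cebpa fl/fl cells and 2 in 25 Cebpa ΔSftpc cells. Their Cebpd stood at 53.5 and 289 CPM (2.43, 1.67 to 3.23), Cebpg at 51.3 and 159 CPM (1.63, 0.72 to 2.54) and Ddit3 at 37.9 and 123 CPM (1.70, 0.64 to 2.76). These ratios rested on few cells. The 3 highest cells for each gene held 26 of the 40 Cebpd, 13 of the 22 Cebpg and 13 of the 17 Ddit3 UMIs of the Cebpa ΔSftpc library, whose 25 AT1 cells ranged from 861 to 29334 UMIs. Ager, the defining AT1 marker, stood at 18637 and 3732 CPM in these cells and Krt8 at 605 and 2611 CPM, with 243 of the 361 Krt8 UMIs of the Cebpa ΔSftpc library in its 3 highest cells. The part of these differences in the ratios was not tested. Ciliated cells (42 and 9) carried mainly Cebpb, at 464 and 503 CPM, with Cebpa at 40.0 and 46.3 CPM. Airway secretory cells numbered 7 and 6, too few for a ratio.

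**Figure D3:**
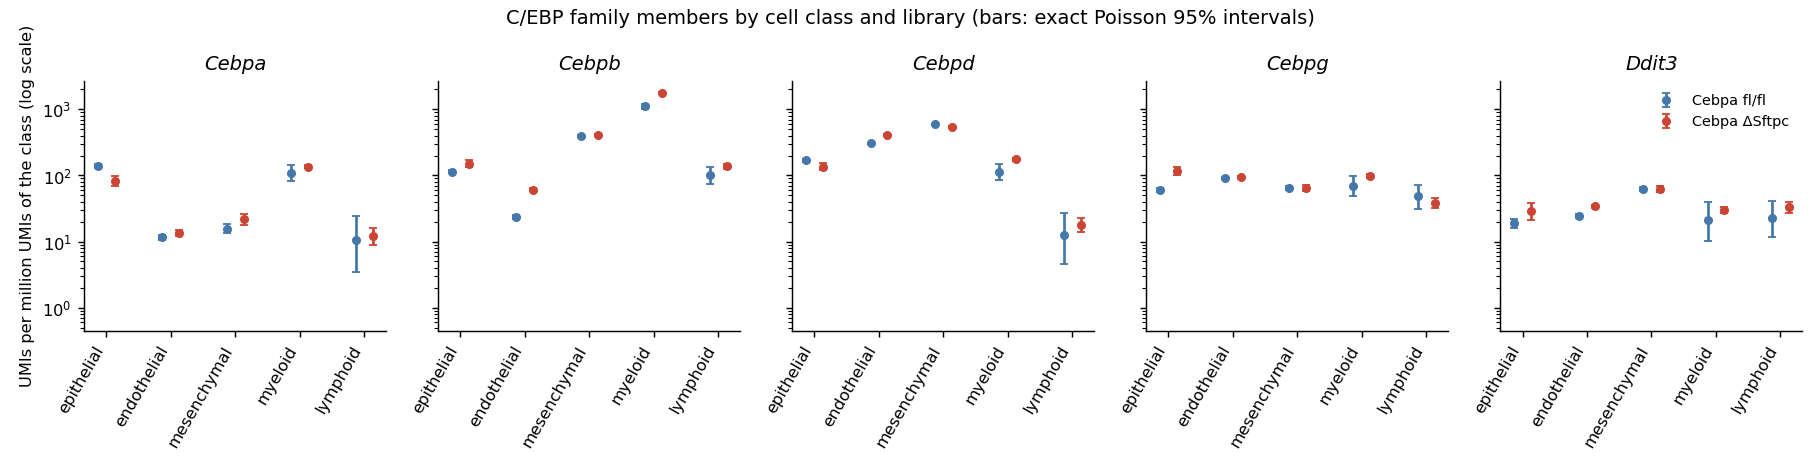
Points are CPM on a log axis for the 5 members that reached 50 UMIs, by class and library, with exact Poisson 95% intervals. Cebpb was highest in myeloid cells (1122 and 1782 CPM), Cebpd in mesenchymal cells (593 and 538 CPM) and Cebpa in epithelial and myeloid cells (82.0 to 139 CPM), and Ddit3 lay between 18.9 and 62.9 CPM throughout.

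Cebpa in cells where the Cre driver is not active served as the background. It stood at 11.7 and 13.4 CPM in endothelial, 15.7 and 21.8 CPM in mesenchymal and 10.5 and 12.2 CPM in lymphoid cells. With each cell thinned to 1000 UMIs, a Cebpa UMI was found in 12.5% (9.72 to 15.7) and 3.96% (1.09 to 9.83) of epithelial cells, 1.09% and 1.57% of endothelial cells, and 0% and 1.16% of lymphoid cells (0 of 65 and 6 of 516). Before thinning these shares were 71.6% and 43.5%, 5.62% and 6.37%, and 6.15% and 8.65%. The thinned epithelial share of the Cebpa ΔSftpc library, 4 of 101 cells, overlapped the endothelial and lymphoid intervals. This overlap rests on those 4 cells, and with more UMIs the levels lay apart. Over all UMIs of that library, epithelial Cebpa stood at 82.0 CPM against 13.4 CPM in endothelial cells. Thinned to 10000 UMIs, 58.1% (42.1 to 73.0) of its AT2 cells held a Cebpa UMI. Among its general capillary cells, which are endothelial, the share was 11.2% (7.71 to 15.7). If AT2 RNA carried the endothelial Cebpa at the AT2 ratio of Cebpa to Sftpc, it would make up 8.77% and 3.27% of the endothelial Cebpa UMIs. The endothelial log2 ratio was 0.20 (0.01 to 0.39) and changed with depth, from 1.17 (0.59 to 1.78) in cells of 1000 to 3000 UMIs to -0.02 (-0.31 to 0.27) in cells of 6000 to 12000. From 12000 UMIs it was -0.50 (-1.06 to 0.06). The mesenchymal ratio, 0.48 (0.13 to 0.82), was 0.04 in cells of at least 3000 UMIs.

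In endothelial cells Cebpd, at 308 CPM (303 to 314) and 411 CPM (404 to 419), was the main member. Its log2 ratio was 0.42 (0.38 to 0.45), and it lay between 0.32 and 0.56 in each of 4 depth ranges. It was 0.38 in aerocytes, the large capillary cells of gas exchange (174 and 227 CPM), 0.49 in general capillary cells (346 and 484 CPM) and 0.86 in venous cells (306 and 554 CPM), but -0.16 (-0.45 to 0.13) in lymphatic cells (395 and 354 CPM). Aerocytes thus held less Cebpd than general capillary cells in each library. Cebpg stood at 90.9 and 95.9 CPM (0.08, 0.01 to 0.15), and Ddit3 stood at 24.2 and 34.0 CPM (0.49, 0.37 to 0.62).

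Cebpb was the only member called in any class. In endothelial cells it stood at 23.3 CPM (21.8 to 24.8, 944 UMIs) and 61.3 CPM (58.6 to 64.1, 1956 UMIs), a log2 ratio of 1.40 (1.29 to 1.51), against 4.66% of 13704 genes called higher and 1.3% called lower in this class. The ratio was 1.77 in aerocytes (16.1 and 55.2 CPM), 1.49 in general capillary cells (17.8 and 50.2 CPM), 0.72 in venous cells and 0.55 in lymphatic cells (182 and 266 CPM). In cells of at least 3000 UMIs the ratio was 0.95, under 2-fold. At 1000 UMIs per cell, 1.84% and 8.11% of endothelial cells held a Cebpb UMI (9.07% and 22.6% before thinning), where lymphoid cells, at median depths of 6752 and 6784 UMIs against 4692 and 4315 in endothelial cells, gave 2 of 65 and 67 of 516 cells. The endothelial shares lay below those of lymphoid cells in each library, and no expression is read from them. The myeloid list stood at 641 and 837 CPM in lymphoid cells, with S100a8 at 2.10 and 54.5 CPM. Whether lymphoid cells make part of the list themselves was not tested. In general capillary cells thinned to 10000 UMIs a Cebpb UMI was found in 15.8% of 215 and 31.8% of 267 cells.

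Myeloid RNA moved with this result. All 11 genes of the myeloid list were detected in the endothelial cells of both libraries, at a summed 27.4 and 185 CPM, and in cells of 1000 to 3000 UMIs at 41.6 and 583 CPM. The Cebpb ratio was 3.49 (3.07 to 3.94) in that depth range, 1.31 (1.09 to 1.54) from 3000 to 6000, 0.72 (0.54 to 0.90) from 6000 to 12000 and 0.77 (0.46 to 1.08) from 12000 UMIs. Tyrobp is a gene of the myeloid list. In the Cebpa ΔSftpc library, 924 (47.3%) of 1956 endothelial Cebpb UMIs would accompany the Tyrobp counted there at the myeloid cells' ratio of Cebpb to Tyrobp. In the Cebpa fl/fl library this was 29.2 (3.09%) of 944. At the neutrophils' ratio of Cebpb to S100a8 the Cebpa ΔSftpc figure was 276 (14.1%), so it depends on the source gene. In lymphoid cells of that library, with Tyrobp at 202 CPM, the Tyrobp sum gave 115% of the Cebpb counted. The sum takes all Tyrobp as carried from myeloid cells, which was not tested. Among endothelial cells with 0 UMIs of the myeloid list, S100a8 and S100a9 (6976 and 1647 cells), the Cebpb ratio was 1.05 (0.85 to 1.24) and that of Cebpd 0.37.

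**Figure D4:**
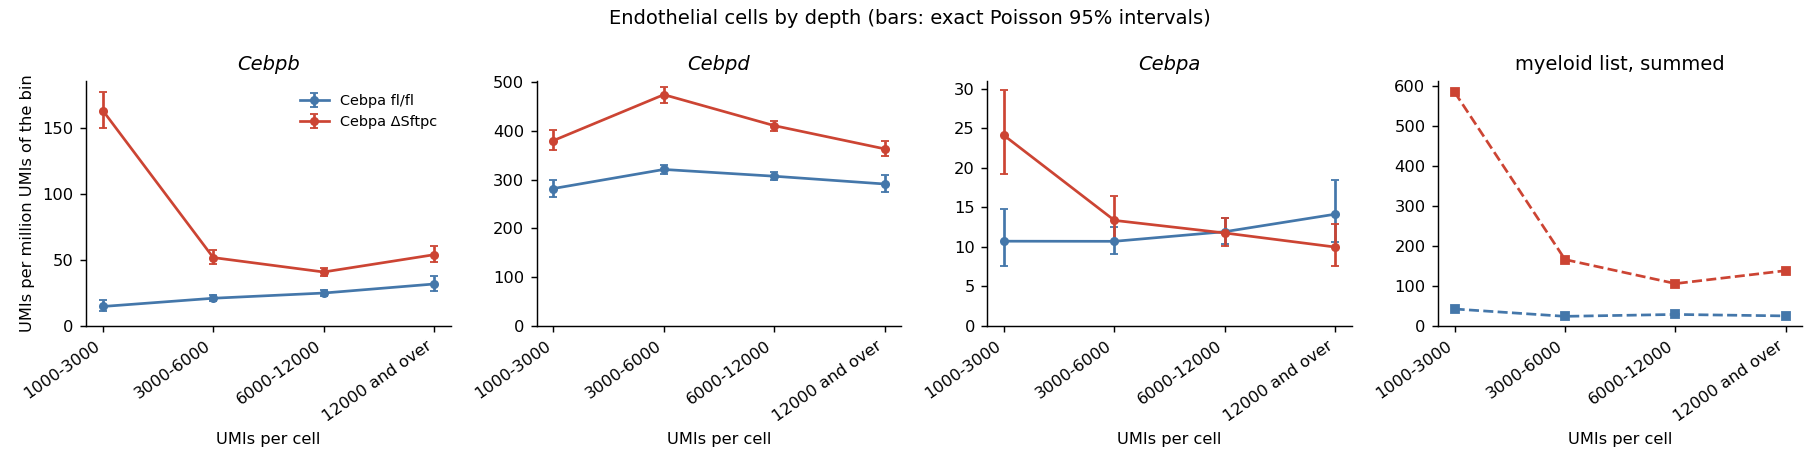
Endothelial CPM of Cebpb, Cebpd and Cebpa with exact Poisson 95% intervals, and the summed myeloid list, against UMIs per cell in 4 ranges and by library. The Cebpa ΔSftpc library's Cebpb fell from 163 CPM in the shallowest to 53.9 CPM in the deepest cells along with the myeloid list (583 to 138 CPM), while its Cebpd stayed between 363 and 475 CPM.

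Mesenchymal cells had the highest Cebpd, at 593 CPM (579 to 607) and 538 CPM (518 to 558), and much Cebpb, at 394 and 411 CPM. None of the 5 members was called, against 2.75% of 12251 genes called higher and 1.22% lower. Cebpg (65.1 and 65.5 CPM) and Ddit3 (62.7 and 62.9 CPM) did not differ beyond counting error. Cebpd had a log2 ratio of -0.14 (-0.20 to -0.08), which differed between depths. It was 1.11 (0.84 to 1.39) in cells of 1000 to 3000 UMIs, -0.01 from 3000 to 6000, -0.23 (-0.34 to -0.13) from 6000 to 12000 and -0.01 from 12000 UMIs, and 0.53 among the 70 and 741 cells without Sftpc UMIs. Taken over all depths, it was also uneven across cell types. In ductal myofibroblasts, the contractile cells of alveolar ducts, it stood at 856 and 523 CPM (-0.71, -0.88 to -0.55). In alveolar fibroblasts, which store lipid beside AT2 cells, it stood at 666 and 694 CPM (0.06, -0.07 to 0.19). In adventitial fibroblasts it stood at 587 and 566 CPM (-0.05, -0.16 to 0.06). Both ratios differed between depths. The alveolar fibroblast ratio was 1.52 (223 and 638 CPM) in cells of 1000 to 3000 UMIs. It was -0.33 (-0.55 to -0.11) from 6000 to 12000 and 0.64 (0.38 to 0.91) from 12000 UMIs. The adventitial ratio was 2.59 from 1000 to 3000 UMIs (7 and 200 Cebpd UMIs) and between -0.10 and -0.01 in deeper ranges. The part of depth in the ductal ratio was not tested. Alveolar fibroblasts also had the highest mesenchymal Cebpb, at 705 and 725 CPM, and smooth muscle cells stood at 132 and 230 CPM (0.80, 0.33 to 1.29). The myeloid list stood at 27.2 and 277 CPM in mesenchymal cells, whose median depths were 5899 and 1925 UMIs, and its part in these ratios was not tested. Epithelial, endothelial and mesenchymal ratios were recomputed in cells with 0 UMIs of the myeloid list, S100a8 and S100a9. Of these, 7 stayed inside their counting interval, 7 moved outside it and 1 turned sign.

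**Figure D5:**
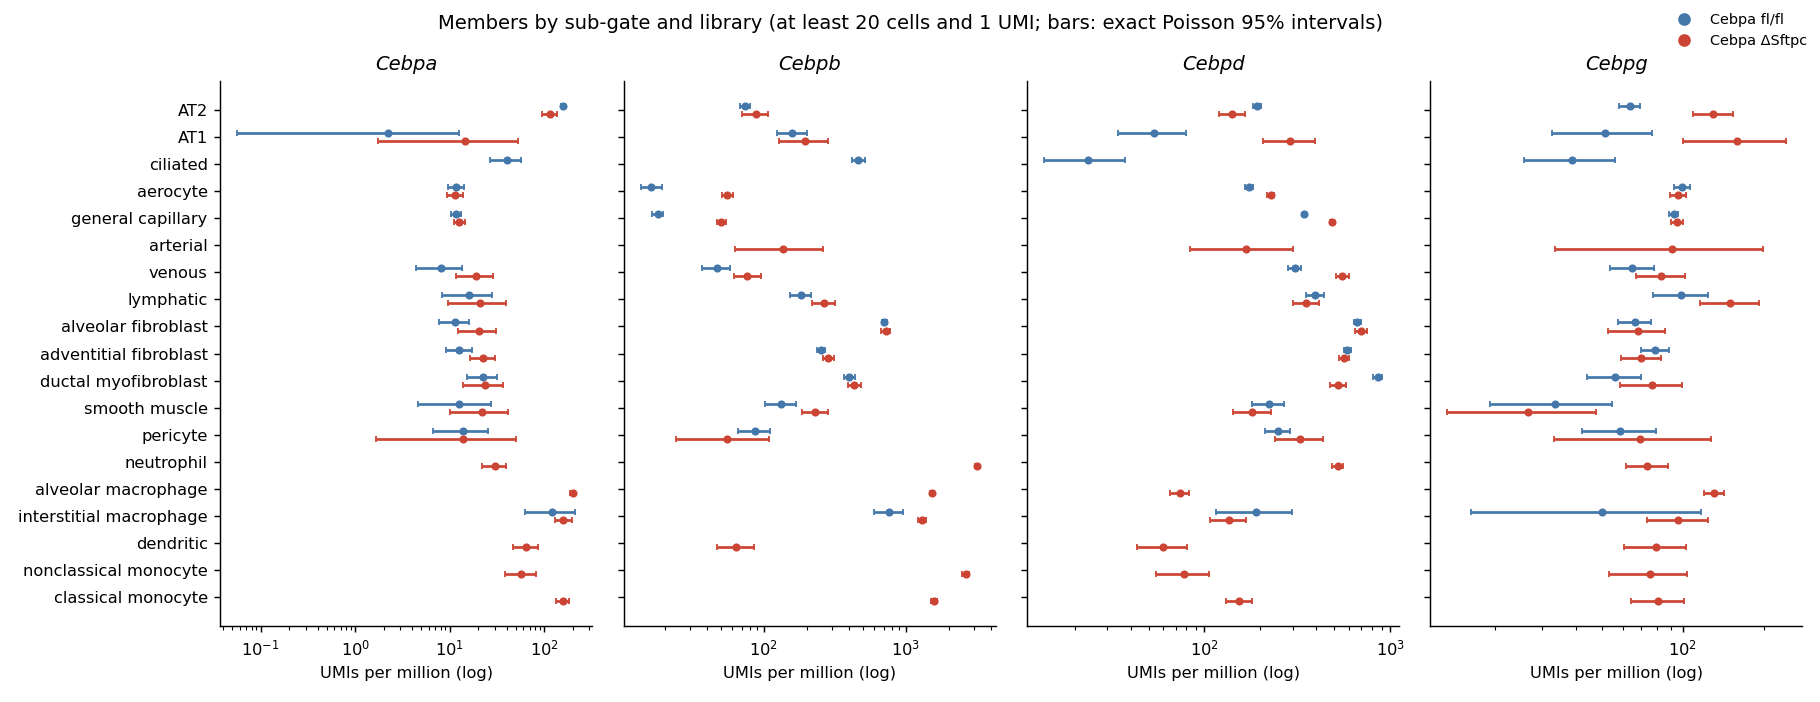
CPM on a log axis of Cebpa, Cebpb, Cebpd and Cebpg in sub-gates of at least 20 cells and 1 UMI, by library, with exact Poisson 95% intervals. Cebpa reached 159 CPM in Cebpa fl/fl AT2 cells and 200 CPM in Cebpa ΔSftpc alveolar macrophages, Cebpb 3178 CPM in neutrophils, and Cebpd 856 CPM in Cebpa fl/fl ductal myofibroblasts.

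Myeloid cells carried Cebpb above every other member. It stood at 1122 CPM (1029 to 1222) in the 107 Cebpa fl/fl and at 1782 CPM (1757 to 1807) in the 1279 Cebpa ΔSftpc cells, a log2 ratio of 0.67 (0.54 to 0.79). Cebpa stood at 111 and 135 CPM (0.29, -0.11 to 0.72), Cebpd at 113 and 175 CPM (0.63, 0.24 to 1.05), Cebpg at 70.3 and 98.4 CPM (0.49, -0.01 to 1.03) and Ddit3 at 21.3 and 30.0 CPM (0.50, -0.40 to 1.57). None of the 5 members was called, against 10.5% of 10251 genes called higher and 6.41% lower. The libraries differed in which myeloid cells they held: alveolar macrophages numbered 2 and 345, and neutrophils 4 and 317. In interstitial macrophages, the 1 myeloid type with at least 20 cells in each (24 and 100), Cebpb stood at 762 and 1303 CPM (0.77, 0.43 to 1.13).

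In the Cebpa ΔSftpc library the make-up differed between most myeloid types. Alveolar macrophages had the highest Cebpa, 200 CPM (186 to 214, 815 UMIs), with Cebpb at 1529 CPM and Cebpg at 131 CPM. At 10000 UMIs per cell 75.8% of 161 held a Cebpa UMI and all held Cebpb, with a mean of 15.5. At that depth 74.1% of 27 interstitial macrophages and 71.4% of 56 classical monocytes also held a Cebpa UMI. Interstitial macrophages stood at 160 CPM of Cebpa (98 UMIs), with an interval that overlapped that of alveolar macrophages. Their Cebpd, at 135 CPM, was also close to the 154 CPM of classical monocytes, with Cebpb at 1303 CPM. Neutrophils had the most Cebpb, 3178 CPM (3093 to 3266), and Cebpd, 522 CPM (488 to 558), with little Cebpa, 29.9 CPM. Nonclassical monocytes stood at 2634 CPM of Cebpb and 57.4 CPM of Cebpa, and classical monocytes at 1575 and 158 CPM. Dendritic cells stood apart, with Cebpa and Cebpb both at 64.1 CPM and Cebpg, at 79.4 CPM (60.2 to 103), the largest part of the family. The Cebpa intervals of alveolar macrophages and classical monocytes (134 to 185) did not overlap, and those of dendritic cells (46.9 to 85.5) and nonclassical monocytes (38.4 to 82.4) did.

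Cebpe, the granulocyte factor, held 3 and 33 UMIs in the filtered libraries. Of the 33, 13 came from the 317 neutrophils (7.93 CPM, 4.22 to 13.6), 23 from myeloid cells as a whole and 4 from endothelial cells, so no ratio was taken.

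The whole libraries mixed these classes. Cebpa summed over all kept cells went from 33.6 to 42.1 CPM (0.32, 0.24 to 0.40), the opposite of its direction in AT2 cells. Epithelial cells held 56.3% and 5.09% of all Cebpa UMIs, and myeloid cells 2.25% and 55.6%. Cebpb went from 128 to 462 CPM, with 53.2% of its UMIs in mesenchymal cells of the Cebpa fl/fl and 66.7% in myeloid cells of the Cebpa ΔSftpc library.

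Other genes tied to the family were taken from fixed lists. Of a list of related bZIP factors, only some of them C/EBP partners, 0 of 9 measured were called in epithelial cells (median 0.28, all genes -0.0032). Of all genes in that class, 1.79% were called higher and 2.01% lower. In endothelial cells 1 of 10 was called (median 0.33), Batf3 with a log2 ratio of 3.99 from 4 and 50 UMIs. Of the regulators of C/EBP proteins, Trib1, which marks C/EBPα for degradation, was called in endothelial cells (1.29) and the other 5 were not. In endothelial cells 4.66% of all genes were called higher and 1.3% lower, with a median of 0.0037. The myeloid list stood at 27.4 and 185 CPM in these cells, and its part in the Batf3 and Trib1 ratios was not tested. Of 10 targets of CHOP and ATF4, 0 were called in endothelial cells (median 0.27), with Sesn2 at 0.85 and Chac1 at -0.54. All 9 alveolar targets of C/EBPα were below 0 in epithelial cells, with 0 called, from -0.67 for Fabp5 to -0.08 for Scd1 (median -0.38). Elsewhere, 7 of 9 were below 0 in endothelial cells (0 called, median -0.10). In mesenchymal cells 8 of 9 were below 0 (3 called lower, median -0.60), where 1.22% of all genes were called lower. In myeloid cells 6 of 8 were below 0 (2 called lower, median -0.40), against 6.41% of all genes. Sftpc stood at 1264 and 582 CPM in endothelial, 3142 and 906 CPM in mesenchymal and 967 and 229 CPM in myeloid cells. The part of AT2 RNA in these ratios was not tested. In AT2 cells 5 of the 9 were below 0 (median -0.01, all genes 0.07). Of 6 adipogenic targets of the family, 5 were called higher in myeloid cells, against 10.5% of all genes (median 1.54, all genes 0.09). Lpl led at 3.86, in the class that held 2 and 345 alveolar macrophages. Of the neutrophil granule and cytokine list, 4 were called higher each in endothelial, mesenchymal and myeloid cells, among 6, 5 and 6 measured. Of all genes, 4.66%, 2.75% and 10.5% were called higher in these classes. Il6 was called lower in myeloid cells (-1.97). In epithelial cells 2 of 3 were called higher (1.79% of all genes), with S100a8 at 0.213 and 38.0 CPM. S100a8 stood at 2.09 and 166 CPM in endothelial, 0.844 and 282 CPM in mesenchymal and 2.10 and 54.5 CPM in lymphoid cells. By CPM, epithelial cells thus held the least S100a8 of any class in each library. In the Cebpa fl/fl library this rests on 2 epithelial and 1 lymphoid UMI. Per cell, the epithelial cells of the Cebpa ΔSftpc library (64 UMIs in all) held more S100a8 than its lymphoid cells (206 UMIs).

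The genes most like each member across 12 sub-gates in 2 libraries (24 points, Pearson correlation of log2 of CPM plus 10, among 13904 genes) were Lyz2 (0.94), Sema4a (0.91) and Tnfsf13os (0.89) for Cebpa. For Cebpb they were Il6ra (0.91), Ctsb (0.91) and Fth1 (0.88), for Cebpd Rcn1 (0.86), Rab23 (0.79) and Lefty1 (0.79), for Cebpg Tmem265 (0.79), 2310061I04Rik (0.78) and Ythdf2 (0.76), and for Ddit3 Gm10561 (0.84), Znrd2 (0.80) and Gpc1 (0.79). Points of the same library share depth and free RNA, and sub-gates of one class share a gate. Between members the correlation ranged from -0.30 to 0.38.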

How the data were processed

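The authors made 3′ single-cell libraries (10x Genomics) and aligned them to mm10 with Cell Ranger, for which the submitters' processing notes give version 6.1.1 and the matrix headers 5.0.0. The deposited values are raw UMI counts per gene and cell, 1 matrix per genotype. The family members, gene lists and comparisons were chosen with earlier results of these data known.

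Cells were kept when 200 or more genes were detected and mitochondrial UMIs made up 20% or less. A class needed at least 3 UMIs of its marker list from at least 2 genes and at least 3 times those of every other list. Sub-gates needed 2 UMIs and 2 times the others. No doublet caller was run: cells carrying markers of 2 classes stayed unassigned, and an alternative left out cells above the 95th percentile of UMIs. Counts were summed per class and library and divided by the class total. With 1 library per genotype no test was made. Shares were compared after random thinning of each cell to 1000 UMIs, or 10000 for deep cells, leaving out shallower cells. Genes most like a member were the 3 with the highest correlation among genes with at least 200 UMIs. Clopper-Pearson intervals were used for shares. Python 3.11.15, numpy 2.4.6, scipy 1.17.1, pandas 2.3.3 and matplotlib 3.10.9 were used, and the calculations were first tested on simulated data. Alternatives were a stricter and a looser class gate, a stricter cell filter, deeper cells, thinned counts and a total without genes that free RNA carries.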

Additional observations from a re-analysis of the deposited data

Results flagged for a closer look

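Members went different ways in different classes under the same contrast, and none of these differences was tested, since each genotype was 1 library. Cebpa had a log2 ratio of -0.76 in epithelial cells but 0.20 in endothelial and 0.48 in mesenchymal cells. Cebpd had ratios of -0.33 in epithelial and -0.14 in mesenchymal cells but 0.42 in endothelial and 0.63 in myeloid cells. The cells left without a class, 1140 and 3869 in number, entered no comparison and also carried a signal. Cebpb had a ratio of 0.91 there (252 and 472 CPM), Cebpd of 0.66 (157 and 247 CPM) and Ddit3 of 0.52 (23.9 and 34.2 CPM).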

How the results depend on the processing

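Of 151 log2 ratios recomputed under the alternatives set out at the start, 127 stayed inside the counting interval of the reported ratio. A further 23 moved outside it and 1 turned sign. A turn of sign was counted only where the reported interval was clear of 0. Thinned to 1000 UMIs per cell, the Cebpa ratio was -1.74 in epithelial, 0.54 in endothelial and 1.19 in mesenchymal cells, and Cebpd in epithelial cells turned from -0.33 to 0.20. In cells of at least 3000 UMIs, Cebpa in mesenchymal cells was 0.044. The number of member and class pairs past 2-fold was 1 as reported, 2 with the stricter gate (Cebpg in epithelial and Cebpb in endothelial cells), 0 in cells of at least 3000 UMIs, 6 after thinning, 2 without the cells above the 95th percentile, and 1 under the other 3 settings. The cause was not tested. Thinned shares were compared as the log2 ratio of the Cebpa ΔSftpc share over the Cebpa fl/fl share. Of 20 such ratios, 16 at 2000 UMIs per cell lay inside their interval at 1000 and 4 lay outside it.

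Another 43 ratios came from settings chosen after seeing the data. Cebpa in epithelial cells was -0.46 in AT2 cells alone, -0.42 in AT2 cells of at least 10000 UMIs, -0.28 without the AT2 cells low in Sftpc and -0.32 in cells without myeloid UMIs. In cells without Sftpc UMIs Cebpa was 0.68 in endothelial and 1.16 in mesenchymal cells. Among class ratios whose reported interval was clear of 0, the sign turned for Cebpb in epithelial cells (0.41, 0.21 to 0.61). This was when only AT2 cells not low in Sftpc were kept (-0.027). The Cebpb ratio of all AT2 cells, 0.26 (-0.08 to 0.58), was not clear of 0. The sign also turned for Cebpg in endothelial cells without myeloid UMIs (-0.053) and for Cebpd in mesenchymal cells without Sftpc UMIs (0.53). Cebpe gave no ratio where a library held 0 UMIs. No paired analysis was possible because each genotype had 1 library, and no replicate could be left out. In the Cebpa ΔSftpc library the epithelial ratios rested on 57 AT2 cells, 25 AT1 cells, 11 cells of no sub-gate and the few ciliated and airway secretory cells. The last 2 types held 76 and 30 of its 255 epithelial Cebpb UMIs.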
